A study of Homo sapiens with 10 samples.

Results

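The later step of the nutlin-3a response, from 6 h to 19 h, was examined in BJ cells. BJ cells are human fibroblasts, here immortalised by expressing telomerase (hTERT), and nutlin-3a is a small molecule that blocks the binding of MDM2 to p53. The groups used were cells on nutlin-3a for 6 h and cells on nutlin-3a for 19 h, each profiled by RNA-Seq of poly(A) RNA and by Ribo-Seq. Ribo-Seq is meant to sequence the mRNA stretches covered by a ribosome. All of these cells carried the telomerase transgene and were kept in serum, and those for Ribo-Seq were also given cycloheximide, which holds ribosomes on the mRNA, shortly before lysis. The libraries of 2 h and 4 h were read only to place the 6 h and 19 h levels, and the untreated libraries were not used. A gene was tested where its level was at least 5 FPKM, the unit of reads per transcript length and library size, at 6 h or 19 h in each assay. Of 11258 transcripts present in both tables, 6241 met this rule, in 4 of the 10 libraries. Levels below 1 FPKM were set to 1, and a gene is said to have risen or fallen only where it changed by 2-fold or more.

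MDM2 is the ubiquitin ligase that keeps p53 low, so blocking it lets p53 accumulate and activate its targets. Among those targets CDKN1A encodes p21, an inhibitor of the kinases that drive the cell cycle, and p21 restores repression of E2F-dependent and mitotic genes by the RB family and the DREAM complex. MDM2 is itself a target, which forms the best known feedback loop of the pathway. The translation of ribosomal proteins is set at another layer, through mTOR and a run of pyrimidines at the 5' end of their mRNAs, the TOP motif. The study places mTOR between p53 and this layer, with SESN1 and SESN2 as mediators. A step from 6 h to 19 h compares the levels at these times and does not show the course between them.

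With 1 library per group and assay there was no replicate check and no p-value, and errors here come from read counting alone. The libraries held 27554288 (6 h) and 26048866 (19 h) reads in RNA-Seq and 10073092 (6 h) and 7744900 (19 h) reads in Ribo-Seq, totals worked out from the smallest steps between FPKM values. A tested gene had a median of 1661 and 1504 reads in RNA-Seq and of 489.5 and 338 reads in Ribo-Seq, which gave log2 changes a median counting SE of 0.051 in RNA, 0.10 in ribosome density (the Ribo-Seq level) and 0.12 in translational efficiency (TE, log2 of Ribo-Seq over RNA-Seq). All 14 fibroblast markers were above 1 FPKM in RNA-Seq, with a summed level of 12637 FPKM at 6 h and 14757 FPKM at 19 h. Of markers of other cells, 3 of 7 epithelial, 2 of 6 endothelial, 2 of 6 blood, 1 of 5 skeletal muscle and 2 of 4 melanocyte genes were in the table, and each type's summed level was below 1 FPKM at both times. A single Ribo-Seq transcript, ZNF354B, held 5.09% of the reads at 6 h and 11.2% at 19 h while its RNA stood at 1.40 and 1.53 FPKM. Setting it and COL1A1, the next most abundant, aside raised every other density change by 0.11 on the log2 scale. Fewer cells of one kind and less RNA per cell cannot be told apart in these bulk libraries.

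Few genes moved by 2-fold over this step, and in RNA and density most of those that did fell. In RNA this direction depends on the cut-off, since a sliding cut-off on local SDs gave 301 rises and 144 falls. RNA fell for 50 of the 6241 tested genes (0.801%) and rose for 11 (0.176%). Ribosome density fell for 77 (1.23%) and rose for 4 (0.0641%), and TE fell for 27 (0.433%) and rose for 2 (0.032%). The excess of TE falls depended on the scaling, since with the 2 most abundant Ribo-Seq transcripts set aside 11 genes were 2-fold lower and 9 were 2-fold higher in TE. RNA and density fell together for 43 genes (0.689%), and 1 gene rose in both (0.016%). The median log2 change of all tested genes was -0.09 for RNA, -0.14 for density and -0.08 for TE, and with the most abundant Ribo-Seq transcripts set aside the TE median became 0.03. The SD of the changes across genes was 0.32, 0.34 and 0.28. The step from 4 h to 6 h, under the same filter on its own libraries, had 263 RNA falls (3.94%) and 62 rises (0.93%) among 6667 genes, and 476 density falls (7.14%) and 163 rises (2.44%). Its TE changes had an SD of 0.46, with 200 falls (3%) and 98 rises (1.47%). Its density changes had an SD of 0.64, and its density medians were 1.11 for collagens and matrix glycoproteins and 1.42 for giant cytoskeletal proteins. The steps share the 6 h libraries, so their values are given side by side only. The study's own list of BJ nutlin-3a libraries names 6 h and 19 h but not 2 h or 4 h, and it describes run effects. The part of run in the step from 4 h to 6 h was not tested.

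**Figure D1:**
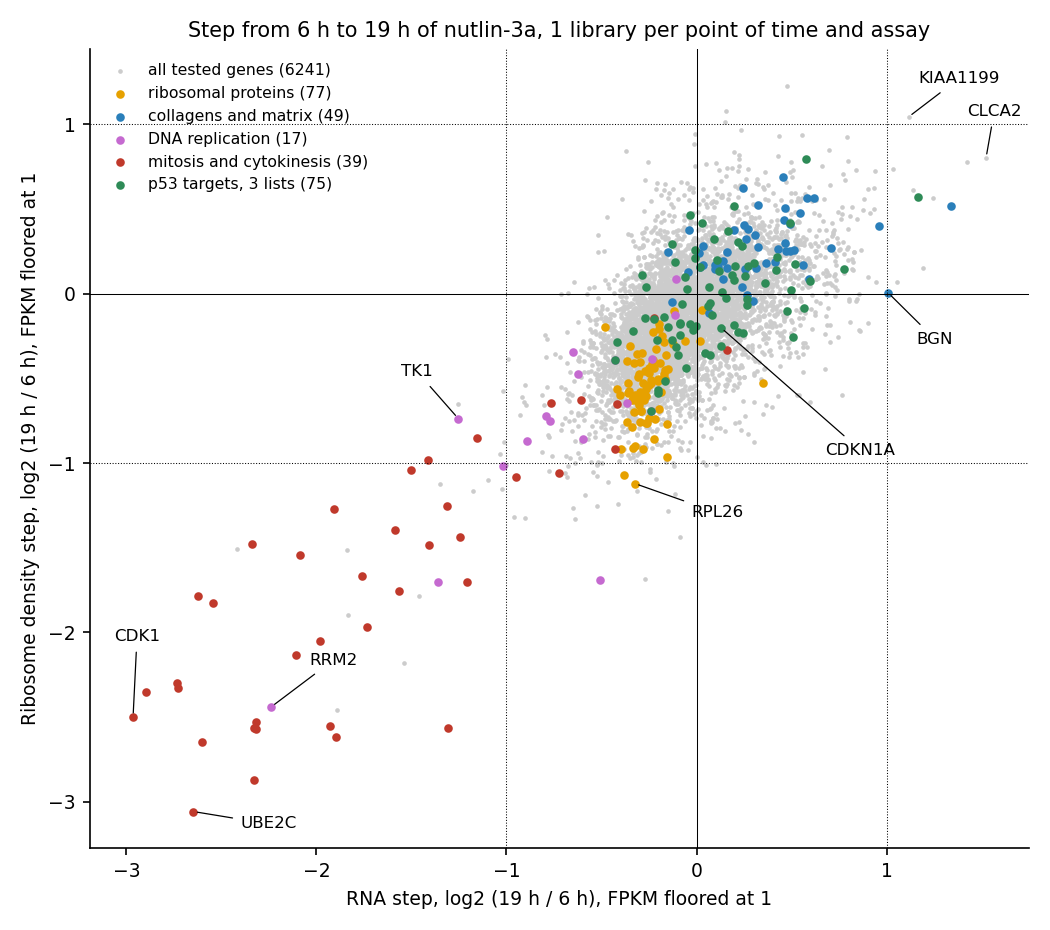
RNA step (x axis) against ribosome density step (y axis), both log2 of 19 h over 6 h with FPKM floored at 1, for the 6241 tested genes; dotted lines mark 2-fold. The genes at the lower left, lower in both assays, are mostly mitosis and replication genes. Of the 77 ribosomal proteins, 75 lie below the density median of all tested genes, most of them within the cloud.

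Genes of mitosis and cytokinesis made up 31 of the 50 RNA falls and 31 of the 77 density falls. Of 99 genes listed, 92 were in both tables and 39 were tested, of which 31 fell in RNA and 31 fell in density, beside 0.801% and 1.23% of all tested genes. Their median log2 change was -1.76 in RNA and -1.70 in density, against -0.09 and -0.14 over all tested genes. RNA and density moved alike, so the median TE change of the list was -0.04. The filter needed a level of 5 FPKM, and all 39 had it at 6 h in both assays but only 13 at 19 h, so members that were already low at 6 h are not in these counts. Without any filter, 91 of the 92 were lower in RNA at 19 h and 92 of 92 were lower in density, against 59.7% and 66.3% of all 11258 transcripts. The 53 members below the filter had a median RNA of 17.6 FPKM at 4 h, 3.57 FPKM at 6 h and 0.683 FPKM at 19 h.

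CDK1, the kinase that drives entry into mitosis, had the largest RNA fall of any tested gene under the floor of 1 FPKM. Its RNA went from 7.81 FPKM at 6 h to 0.946 FPKM at 19 h, after 43.0 FPKM at 2 h and 37.6 FPKM at 4 h. Its Ribo-Seq level went from 5.66 to 0.663 FPKM. With the floor of 1 FPKM the log2 change was -2.96 ± 0.22 (counting SE) in RNA and -2.50 ± 0.48 in density, and the floor makes both smaller than the raw values. Its rank depends on the floor, since with 1 FPKM added in its place the CDK1 RNA change was -2.18 and the ANLN RNA change was -2.35, and with a floor of 5 FPKM they were -0.64 and -2.23. CDK1 was therefore at or below 1 FPKM in both 19 h libraries and well above it in both 6 h libraries. CCNB1, the cyclin that activates CDK1, went from 17.7 to 3.56 FPKM in RNA and from 22.7 to 3.93 FPKM in Ribo-Seq, a log2 change of -2.32 ± 0.11 and -2.53 ± 0.19. CCNB2 had the same order of levels, 13.8 and 3.70 FPKM in RNA and 15.8 and 2.57 FPKM in Ribo-Seq.

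CDC20, an activator of the anaphase-promoting complex, had RNA of 15.4 FPKM at 6 h and 2.33 FPKM at 19 h, and Ribo-Seq levels of 23.4 and 4.65 FPKM. Its RNA change was -2.73 ± 0.15 on the log2 scale. UBE2C, a ubiquitin-conjugating enzyme that works with this complex, went from 14.4 to 2.30 FPKM in RNA and from 30.4 to 3.65 FPKM in Ribo-Seq. Its density change of -3.06 ± 0.31 was, with this floor, the largest fall in density of any tested gene. PTTG1, the securin that the complex degrades, remained at 11.7 FPKM in RNA at 19 h from 34.6 FPKM at 6 h, a log2 change of -1.57. PTTG1, CCNB2 and the other genes named in this account outside the stated rule were chosen after their values were seen.

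Spindle and cytokinesis factors followed. KIF20A, a kinesin of the late spindle, had RNA of 9.5 and 1.43 FPKM at 6 h and 19 h and Ribo-Seq levels of 9.34 and 1.90 FPKM. ANLN, the anillin scaffold of the cleavage furrow, went from 23.5 to 3.82 FPKM in RNA, a change of -2.62 ± 0.071, and from 6.51 to 1.89 FPKM in Ribo-Seq. NUSAP1, a spindle microtubule protein, went from 10.7 to 1.77 FPKM in RNA and from 13.9 to 2.22 FPKM in Ribo-Seq. BIRC5, survivin of the chromosomal passenger complex, went from 12.4 to 2.12 FPKM in RNA and from 9.49 to 2.68 FPKM in Ribo-Seq. Each of these was lower at 19 h in both assays by far more than its counting error. The remaining genes of the 12 largest falls were SHCBP1, FAM83D, CENPM, KIFC1 and FAM64A, with RNA changes from -2.89 (SHCBP1) to -2.33 (FAM64A). At the mild end of the list stood CKAP5, a microtubule polymerase, at 31.2 and 26.8 FPKM in RNA. CDC25B, a CDK phosphatase, was the 1 tested member whose RNA was higher at 19 h, at 18.2 and 20.3 FPKM, while its Ribo-Seq level was 13.6 and 10.8 FPKM.

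**Figure D2:**
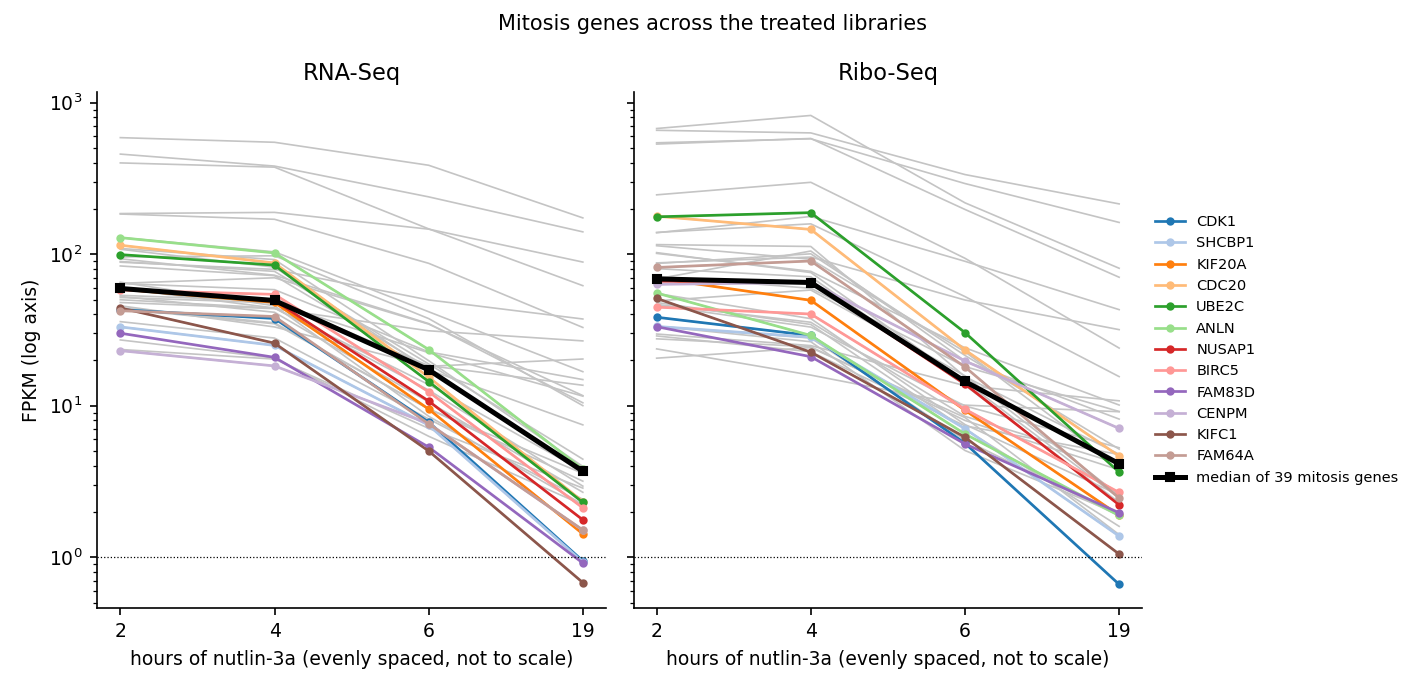
FPKM on a log axis at 2, 4, 6 and 19 h of nutlin-3a in RNA-Seq (left) and Ribo-Seq (right). Grey lines are the 39 tested mitosis genes, coloured lines the 12 genes with the largest RNA fall among those that fell in both assays, the black line the median of the 39, and the dotted line 1 FPKM. The median of the 39 is lower at 6 h than at 4 h and lower again at 19 h in both assays, and KIFC1 and ANLN already drop in Ribo-Seq from 2 h to 4 h.

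The fall followed a lower level at 6 h than at 4 h, and the part of run in the 4 h comparison was not tested. All 50 genes that fell in RNA had a lower level at 6 h than at 4 h, and 42 of them were 2-fold or more lower there. The tested mitosis genes had a median log2 change of -1.75 in RNA from 4 h to 6 h, and of -1.76 from 6 h to 19 h. In density these medians were -2.01 and -1.70. These sizes cannot be compared as rates, because all 39 passed the filter by their 6 h level and the floor cuts the later step. With a floor of 5 FPKM the RNA median from 6 h to 19 h was -0.95. The change exceeded 2-fold by its 95% counting interval in 41 of the 50.

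DNA replication genes moved the same way but were mostly gone from the tested set by 6 h. Of 64 listed genes in both tables, 45 had 5 FPKM in both assays at 4 h, 17 at 6 h and 11 at 19 h. Of the 17 tested, 4 fell in RNA and 4 in density, with medians of -0.62 and -0.72 and a TE median of 0.00. Without a filter, 63 of 64 were lower in RNA at 19 h and 63 of 64 in density. RRM2, the small subunit of ribonucleotide reductase, had RNA of 71.4 FPKM at 4 h, 8.38 FPKM at 6 h and 1.78 FPKM at 19 h, and Ribo-Seq levels of 10.5 and 1.93 FPKM at 6 h and 19 h. Its log2 change was -2.24 ± 0.12 in RNA and -2.44 ± 0.21 in density. FEN1, the flap endonuclease of lagging-strand synthesis, went from 7.18 to 2.79 FPKM in RNA and from 11 to 3.37 FPKM in Ribo-Seq. MCM5, a subunit of the replicative helicase, went from 15.7 to 7.76 FPKM and from 29.4 to 14.5 FPKM.

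Some replication genes differed from that pattern. TK1, thymidine kinase, had RNA of 83.3 and 34.9 FPKM and Ribo-Seq levels of 126 and 75.5 FPKM, so that RNA fell by 1.25 on the log2 scale while the density change was -0.74. PCNA, the sliding clamp, which p53 also activates, was at 128 and 94.8 FPKM in RNA and at 156 and 120 FPKM in Ribo-Seq, and did not reach 2-fold in either. TYMS, thymidylate synthase, was at 87.1 and 57.5 FPKM in RNA and 115 and 63.4 FPKM in Ribo-Seq. MCM7 was the reverse of TK1. Its RNA was at 13.4 and 9.40 FPKM and its Ribo-Seq level at 12.6 and 3.89 FPKM, a density change of -1.69 ± 0.17 against -0.51 ± 0.069 in RNA.

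Among the 50 RNA falls 35 were on the mitosis or replication lists, and 15 were not. Several of the 15 are known for the same processes, such as CENPW of the inner kinetochore (13.7 to 3.71 FPKM in RNA and 85.9 to 15.7 FPKM in Ribo-Seq), KIAA0101, a PCNA-binding protein (12.8 to 3.61 and 19.4 to 5.23 FPKM), RNASEH2A of ribonuclease H2 (13.8 to 5.01 and 26.5 to 7.69 FPKM) and DTYMK, thymidylate kinase (26 to 12.8 and 39.2 to 26.3 FPKM). CDKN3, a phosphatase of CDK kinases listed here among quiescence genes, went from 14.6 to 4.08 FPKM in RNA and from 9.89 to 3.47 FPKM in Ribo-Seq. Others carry no such role, among them FABP5, a fatty acid binding protein, at 6.14 and 2.57 FPKM in RNA, and TM4SF1, a membrane protein, at 14.5 and 7.21 FPKM.

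The start regions of the falling genes were read for the short motifs through which cell-cycle genes are known to be repressed. Promoters of 250 bases before to 50 after each RefSeq start (GRCh38.p14) were matched by symbol for 5179 of the tested genes, including 38 of the 50 RNA falls and all 11 rises, and a gene with several starts was counted if any of them held the motif. The CHR letters TTTGAA or TTCGAA on either strand were in 21 of the 38 (55.3%) and in 4 of the 11 RNA rises (36.4%), against 13.7% of the tested genes with a promoter. The letters CCAAT on either strand were in 31 of the 38 (81.6%) against 43.3%, and both together in the same promoter in 20 (52.6%) against 5.64%. Of the 11 rises, 2 held CCAAT (18.2%) and 0 held both. The E2F letters on either strand, read as TTGGCGC or as TTCCCGC or else as TTCGCGC, were in 10 of the 38 (26.3%) against 22.2%, but in 12 of the 14 tested replication genes with a promoter (85.7%). Over all 35116 promoters of the reference, 16.4% held the CHR letters, 34.6% CCAAT and 11% the E2F letters. The mitosis list had the CHR letters in 22 of 30 promoters (73.3%). A match is a stretch of letters and not a shown binding site.

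The 110 bases before the start of 4 of these genes are shown, since they carry both kinds of motif or a variant arrangement of them. Capitals mark CHR letters and CCAAT on either strand (ATTGG on the other), 5' to 3' on the gene's strand. CDC20 (chr1:43358871-43358980, plus strand) holds 1 CHR between CCAAT boxes, ANLN (chr7:36389752-36389861, plus strand) holds the CHR letters on both strands side by side, and KIF20A (chr5:138179002-138179111, plus strand) and CCNB1 (chr5:69167040-69167149, plus strand) hold CCAAT boxes with no CHR letters in this window.
CDC20: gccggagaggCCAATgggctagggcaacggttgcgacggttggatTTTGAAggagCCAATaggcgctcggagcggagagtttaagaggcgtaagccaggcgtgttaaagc
ANLN: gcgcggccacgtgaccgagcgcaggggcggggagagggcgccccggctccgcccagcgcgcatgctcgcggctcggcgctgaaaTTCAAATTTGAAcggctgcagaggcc
KIF20A: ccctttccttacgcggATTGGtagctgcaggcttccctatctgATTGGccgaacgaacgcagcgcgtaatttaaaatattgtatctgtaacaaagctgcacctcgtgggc
CCNB1: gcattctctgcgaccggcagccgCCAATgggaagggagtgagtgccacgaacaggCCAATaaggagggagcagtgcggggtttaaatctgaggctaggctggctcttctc

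Replication-dependent histones, whose mRNAs are made in S phase and end in a stem-loop in place of a poly(A) tail, are missed by the poly(A) RNA-Seq but are seen in Ribo-Seq. All 28 such transcripts in both tables had a lower Ribo-Seq level at 19 h than at 6 h, and 16 of the 28 were lower by 2-fold or more, against 1.94% of all 11258 transcripts without a filter. Their median Ribo-Seq level was 672 FPKM at 4 h, 105 FPKM at 6 h and 38.2 FPKM at 19 h, and all 28 were also lower at 6 h than at 4 h. The core histone HIST1H3H went from 364 to 96.4 FPKM, HIST1H2AE from 245 to 59.5 FPKM and HIST1H2AJ from 69.3 to 7.29 FPKM. The linker histone HIST1H1C was at 574 and 450 FPKM and HIST4H4 at 30.4 and 27.7 FPKM. The first 3 of these fell by 2-fold or more and the last pair did not. In RNA-Seq 19 of the 28 were below 1 FPKM at both times, so no TE is given for the family. The 3 that passed the filter were HIST1H1C and the pair that follows. HIST1H2BK had RNA of 17.7 and 21.8 FPKM beside Ribo-Seq levels of 113 and 61.7 FPKM, and HIST1H2AC had RNA of 9.91 and 13.1 FPKM beside 188 and 118 FPKM.

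The p53 targets changed as little from 6 h to 19 h as tested genes in general. Of 75 tested targets on the 3 target lists, 72 changed by less than 1.5-fold in RNA and 72 in density, as did 95.5% and 90.5% of all tested genes. The list of arrest and stress targets (32 tested of 39) had median log2 changes of 0.08 in RNA and 0.04 in density, with no gene past 2-fold. That of death and autophagy targets (20 tested of 31) had 0.18 and -0.05, with 1 RNA rise, LRP1. DNA repair and metabolism targets (23 tested of 32) had -0.04 and -0.09, with none past 2-fold.

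CDKN1A, which encodes p21, had RNA of 212, 915, 1204 and 1316 FPKM at 2, 4, 6 and 19 h, and Ribo-Seq levels of 488, 2729, 3708 and 3227 FPKM. Its step from 6 h was 0.13 ± 0.010 in RNA and -0.20 ± 0.011 in density. MDM2 had RNA of 36.3, 203, 254 and 259 FPKM and Ribo-Seq levels of 8.25, 59.0, 65.8 and 55.2 FPKM at the same times. Both genes were thus high from 4 h on in both assays. FDXR, a mitochondrial reductase, was at 99.9 and 92.5 FPKM in RNA at 6 h and 19 h and at 143 and 163 FPKM in Ribo-Seq. TP53I3, an oxidoreductase linked to apoptosis, was at 100.0 and 112 FPKM in RNA and at 143 and 140 FPKM in Ribo-Seq.

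The Sestrin genes, regulators of mTOR, had unlike courses. SESN1 RNA was at 20.4, 24.2 and 22.6 FPKM at 4, 6 and 19 h, and its Ribo-Seq level at 11.9, 11.3 and 8.79 FPKM. SESN2 RNA was at 37.5, 21.1 and 24.9 FPKM and its Ribo-Seq level at 29.1, 20.1 and 24.5 FPKM. SESN2 was thus highest at 4 h, and neither gene moved by 2-fold after 6 h. GDF15, a secreted stress cytokine, had RNA of 70.7 FPKM at 4 h, 13.1 FPKM at 6 h and 14.8 FPKM at 19 h, with Ribo-Seq levels of 231, 48.8 and 52.7 FPKM. The apoptosis effector BBC3 was at 12.2 and 14.2 FPKM in RNA at 6 h and 19 h and at 12.2 and 10.4 FPKM in Ribo-Seq, and the death receptor TNFRSF10B at 90.5 and 94.3 FPKM and at 51.5 and 49.1 FPKM.

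**Figure D3:**
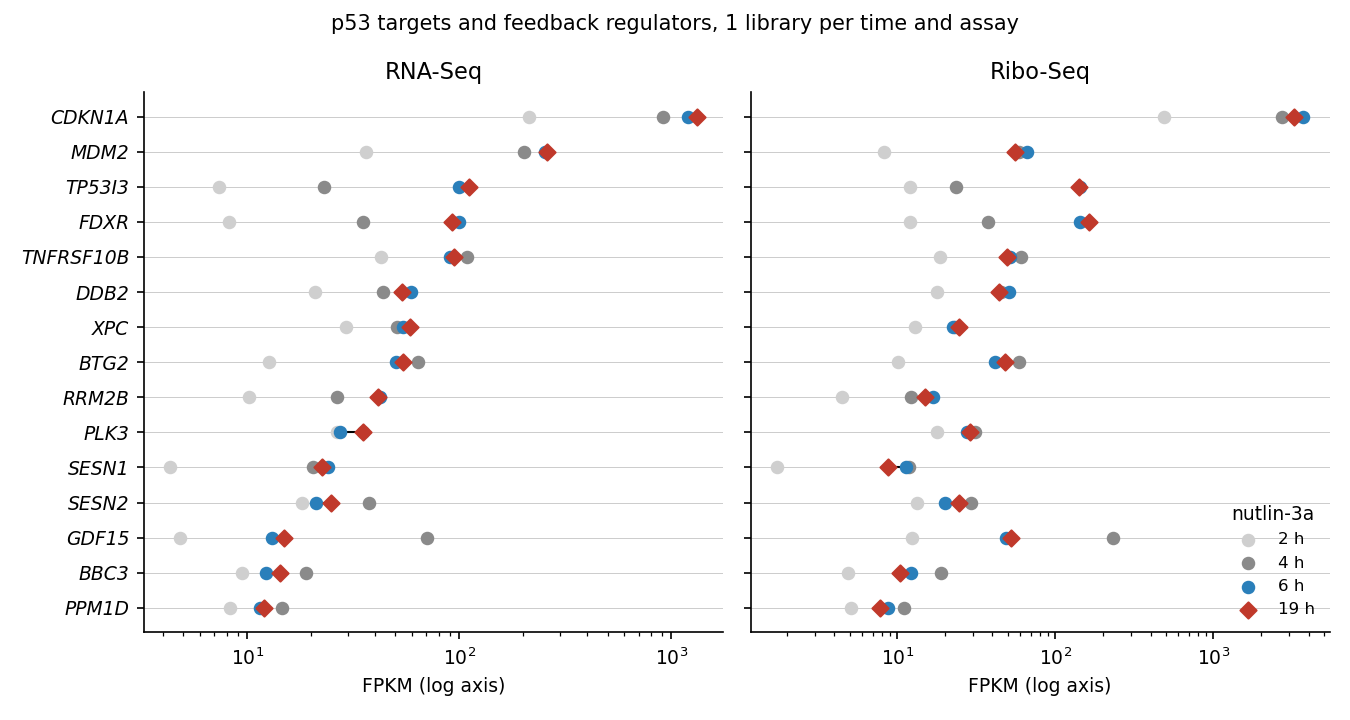
FPKM on a log axis of key p53 targets and feedback regulators at 2, 4, 6 and 19 h of nutlin-3a, in RNA-Seq (left) and Ribo-Seq (right); a line joins 6 h (blue) to 19 h (red diamond). The 6 h and 19 h points lie close together for each gene, CDKN1A being the highest in both assays.

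Of the feedback regulators, all 5 tested had a density below that of 6 h, and 4 of 5 were below the density median of all tested genes. None passed 2-fold, and the medians were 0.03 in RNA, -0.20 in density and -0.29 in TE. CCNG1, a cyclin that recruits a phosphatase to MDM2, was at 130 and 125 FPKM in RNA and at 43.1 and 31.8 FPKM in Ribo-Seq. PPM1D, the WIP1 phosphatase, was at 11.4 and 12.1 FPKM and at 8.73 and 7.80 FPKM. The list's TE median stayed below that of all tested genes under every setting tried, by 0.16 to 0.30 on the log2 scale. This rests on 5 genes, 1 of them above 0 in TE, and the 0.30 on 3 genes at a filter of 20 FPKM. Centring and rescaling cannot change this difference.

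RNA rises were few. CLCA2, a membrane protein induced by p53, had the largest, from 7.81 FPKM at 6 h to 22.4 FPKM at 19 h, after 0.763 FPKM at 4 h, a log2 change of 1.52 ± 0.057. Its Ribo-Seq level went from 4.79 to 8.34 FPKM, which is short of 2-fold. SULF2, an extracellular sulfatase, had RNA of 0.433, 4.33 and 8.85 FPKM at 4, 6 and 19 h, and PLTP, a phospholipid transfer protein, 6.57, 13.6 and 29.8 FPKM. These 3 genes had been rising since 4 h. KIAA1199, a hyaluronan-degrading protein now named CEMIP, was the 1 gene that rose in both assays, from 14.2 to 30.8 FPKM in RNA and from 12 to 24.7 FPKM in Ribo-Seq. Its RNA had been higher before, at 24.4 FPKM at 2 h and 17.5 FPKM at 4 h, with Ribo-Seq levels of 20.3 and 8.55 FPKM.

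Most other rises also started from a low 6 h level. Of the 11 RNA rises, 7 had a lower RNA level at 6 h than at both 2 h and 4 h, and 5 were also 2-fold above the 4 h library. The share of all tested genes with RNA lower at 6 h than at both 2 h and 4 h was not counted. Choosing genes by their rise from 6 h itself favours a low 6 h level. POLR2A, the large subunit of RNA polymerase II, had RNA of 53, 31.8 and 66.2 FPKM at 4, 6 and 19 h with Ribo-Seq levels of 32.5 and 34.0 FPKM at 6 h and 19 h. BGN, the matrix proteoglycan biglycan, had 331, 215 and 431 FPKM with Ribo-Seq levels of 391 and 393 FPKM. HSPG2, the basement membrane proteoglycan perlecan, had 56.8, 34.8 and 88.0 FPKM. Across all tested genes, 38 were 1.5-fold lower in the 6 h RNA library than at both 4 h and 19 h, and 6 were 1.5-fold higher. In Ribo-Seq these counts were 19 and 11. The part of the single 6 h RNA library in these rises was not tested.

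Density rose for C17orf90, FUZ, MPPE1 and KIAA1199 only. MPPE1, a phosphoesterase, had Ribo-Seq levels of 3.19 and 7.48 FPKM and FUZ, a cilium assembly protein, of 3.97 and 8.40 FPKM. Apart from KIAA1199 these are low levels, and no density rise exceeded 2-fold by its 95% counting interval.

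Collagens and matrix glycoproteins were higher at 19 h as a group, most by less than 2-fold. Of 55 listed, 49 were tested, of which 45 had a higher RNA and 45 a higher density at 19 h, and 2 rose (HSPG2 and BGN, in RNA, the latter with a TE fall). The medians were 0.30 in RNA and 0.25 in density, both above those of all tested genes under every setting, with a TE median of -0.03. COL1A1, the main chain of type I collagen, had RNA of 1501 FPKM at 6 h and 2923 FPKM at 19 h and Ribo-Seq levels of 3984 and 5262 FPKM. COL1A2 went from 2141 to 3011 FPKM in RNA and from 3849 to 5124 FPKM in Ribo-Seq, and FN1, fibronectin, from 1433 to 2114 FPKM and from 696 to 781 FPKM. RNA gained more than density in COL1A1 (0.96 against 0.40) and FN1 (0.56 against 0.17), and by about the same in COL1A2 (0.49 against 0.41). Long transcripts gained in general, by 0.082 in RNA and 0.058 in density per doubling of transcript length. With that trend removed, which could be done for 47 of the 49, the collagen RNA median was 0.21.

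Several other lists were also above the all-gene medians with few genes past 2-fold. Lysosomal genes had medians of 0.19 in RNA and 0.14 in density (52 tested, none past 2-fold), with CTSD, cathepsin D, at 131 and 196 FPKM and ARSA, arylsulfatase A, at 9.08 and 16.1 FPKM in RNA. Sterol biosynthesis genes had 0.18 and 0.15 (27 tested, none past 2-fold), with FASN, fatty acid synthase, at 31.3 and 56.2 FPKM in RNA. ATF4 targets, at -0.11 and -0.17 (37 tested), lay close to the all-gene medians. Immediate-early genes had 0.11 and -0.01 (29 tested), with 1 TE fall, ZFP36, an mRNA-decay factor whose RNA was 12.1 and 18.4 FPKM and whose Ribo-Seq level was 13.3 and 8.51 FPKM. Giant cytoskeletal and related proteins had 0.21 and 0.24 (17 tested), and the 2 RNA rises among them were HSPG2 and LRP1. With the length trend removed, which could be done for 11 of them, their RNA median was -0.04. That is 0.038 above the median of all tested genes under the same setting. HSPG2 and LRP1 are not among the 11, so the medians before and after are not of the same genes.

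On the lower side, heat shock proteins and chaperonins had medians of -0.36 in RNA and -0.28 in density (31 tested), with HSPD1, the mitochondrial chaperonin, at 138 and 94.0 FPKM in RNA and CCT5, of the cytosolic chaperonin, at 72.4 and 49.4 FPKM. Glycolysis genes had -0.22 and -0.21 (22 tested), with ENO1, enolase, at 965 and 516 FPKM in RNA and at 768 and 530 FPKM in Ribo-Seq. Oxidative phosphorylation genes had -0.24 and -0.22 (67 tested), 64 of them with a lower RNA at 19 h and 55 below the RNA median of all tested genes. ER chaperones had -0.22 and -0.11 (28 tested), though their density median turned to 0.04 when centred on all tested genes. HSPA5, the BiP chaperone, had RNA of 241, 540 and 284 FPKM at 4, 6 and 19 h and Ribo-Seq levels of 210, 589 and 358 FPKM, and HYOU1, another ER chaperone, had RNA of 50.9, 93.7 and 50.3 FPKM. Both were thus high at 6 h alone among these times. No gene of these 4 lists passed 2-fold.

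**Figure D4:**
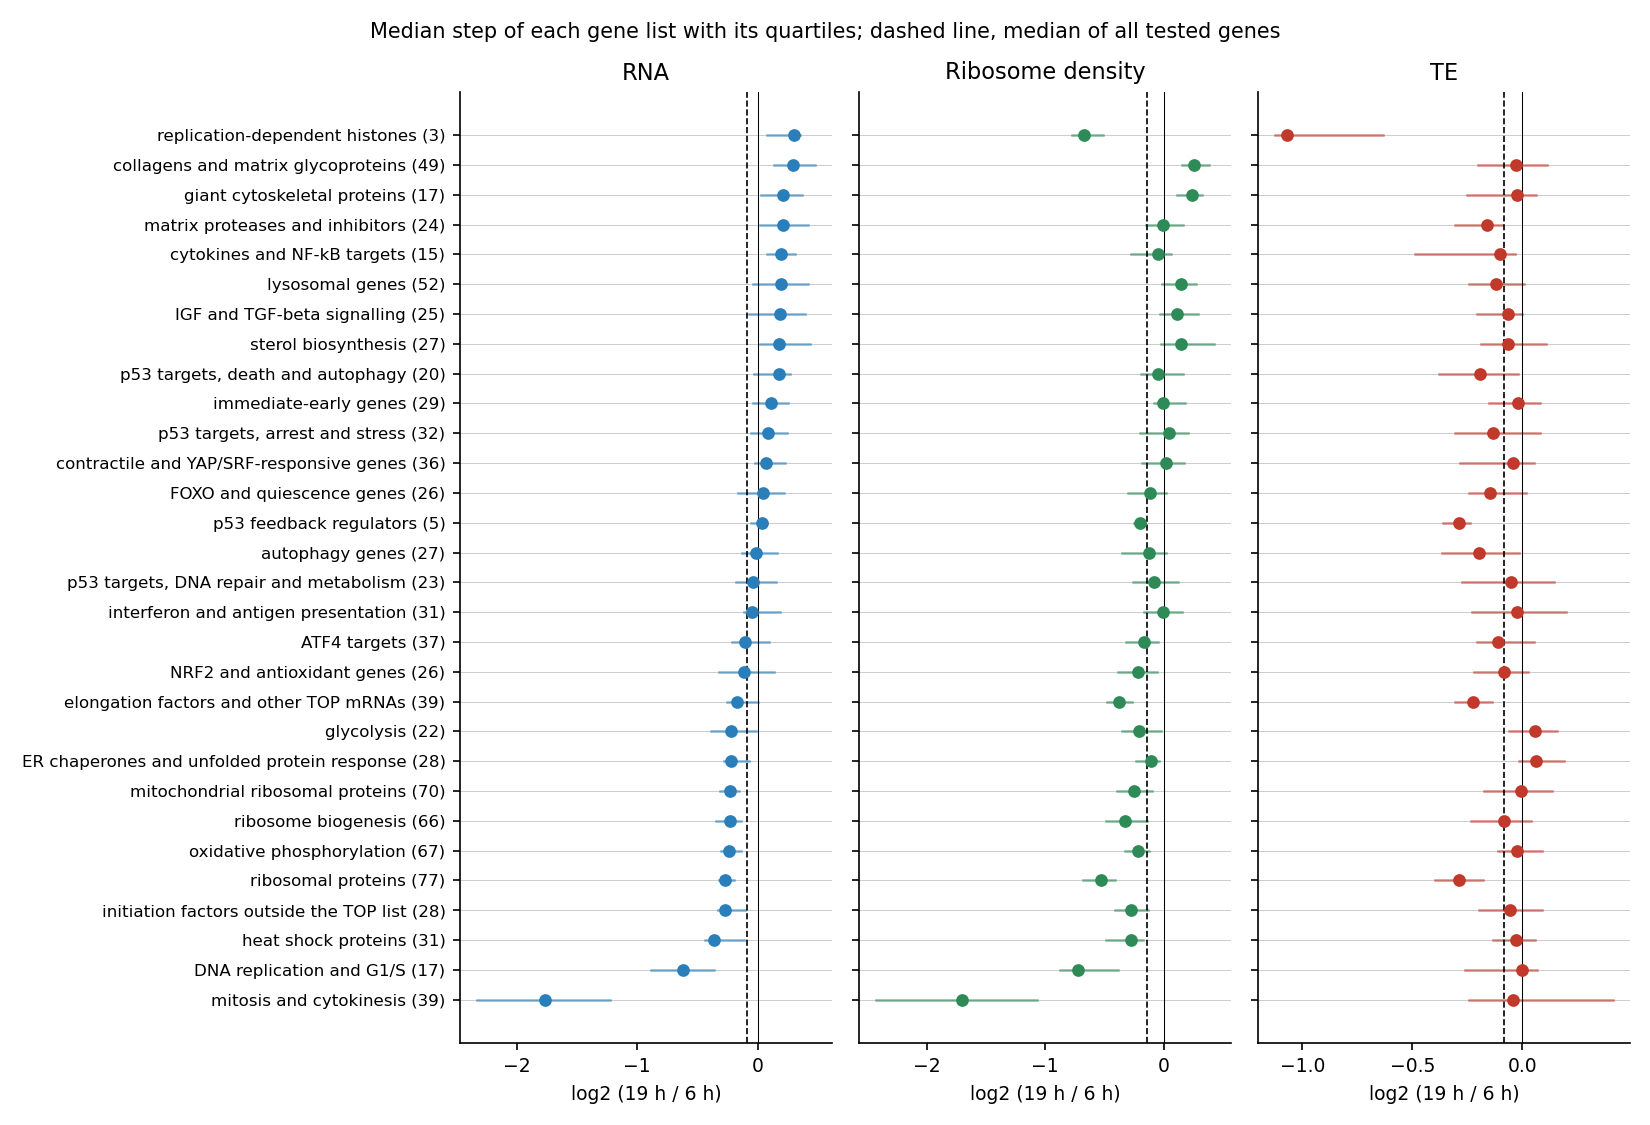
Median log2 change from 6 h to 19 h (points) with the interquartile range (lines) of the tested members of each of 30 gene lists, for RNA, ribosome density and TE, with the number tested in brackets; the dashed line is the median of all tested genes and the TE panel has its own scale. Mitosis and replication genes lie far to the left in RNA and density, and ribosomal proteins lie left of the dashed line in TE.

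Ribosomal proteins were lower at 19 h in density more than in RNA. All 77 tested members had a lower Ribo-Seq level and 74 a lower RNA level, and the medians were -0.53 in density, -0.27 in RNA and -0.29 in TE. Their TE was below the 6 h value in 72 of 77. Since the median of all tested genes was itself below 0, counts below that median are also given. They were 75 of 77 in density, 73 of 77 in RNA and 66 of 77 in TE. Relative to all tested genes the TE median was lower by 0.21, and by 0.21 to 0.24 under the other settings, of which centring and rescaling cannot change it. Only RPL26 and RPL36A passed 2-fold in density, and none did in RNA or TE. The step from 4 h to 6 h had been larger for the same genes, with a median of -0.88 in density, 0.28 in RNA and -1.15 in TE. The part of run in that earlier step was not tested.

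RPL26 had RNA of 907 and 724 FPKM at 6 h and 19 h and Ribo-Seq levels of 310 and 142 FPKM, a density change of -1.12 ± 0.066. RPL36A went from 254 to 195 FPKM in RNA and from 215 to 103 FPKM in Ribo-Seq. RPS27 stood at 1398 and 1257 FPKM in RNA and at 1008 and 516 FPKM in Ribo-Seq. In these 3, density at 19 h was 0.46 to 0.51 of its 6 h level and RNA was 0.77 to 0.90 of it. RPL28 differed, since its RNA was higher at 19 h (540 and 688 FPKM) with a Ribo-Seq level of 1078 and 748 FPKM. RPL23 (174 and 102 FPKM), RPL34 (222 and 143 FPKM) and RPS6 (380 and 249 FPKM) had density changes of -0.76, -0.63 and -0.61.

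Other mRNAs listed as TOP mRNAs, among them the elongation factors, had medians of -0.17 in RNA, -0.38 in density and -0.22 in TE. None of 39 passed 2-fold, and in TE 35 of 39 were below 0 and 32 of 39 below the median of all tested genes. EEF1A1, the factor that delivers tRNAs, was at 3345 and 3020 FPKM in RNA and at 1055 and 818 FPKM in Ribo-Seq. EIF4B, an initiation factor, was at 188 and 195 FPKM in RNA and at 77.6 and 55.4 FPKM in Ribo-Seq, and EIF3E, a subunit of eIF3, at 115 and 107 FPKM and at 67.4 and 37.0 FPKM. Initiation factors outside the TOP list had a TE median of -0.06 (28 tested) and mitochondrial ribosomal proteins of -0.01 (70 tested). Ribosome biogenesis genes had -0.23 in RNA, -0.33 in density and -0.08 in TE (66 tested), as with FBL, fibrillarin, at 57 and 35.4 FPKM in RNA and 60.1 and 30.9 FPKM in Ribo-Seq.

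A pyrimidine start, a C followed by 4 pyrimidines (C or T) beginning within 5 bases of the annotated start on the gene's strand, was found in 53 of 62 ribosomal protein genes with a promoter (85.5%) and in 25 of 31 other TOP genes (80.6%), against 30.7% of the tested genes. The second list was drawn up as TOP mRNAs, so its high share follows from how its genes were chosen. Within the tested genes outside both lists, the TE median was -0.09 with such a start (1510 genes) and -0.07 without it (3576 genes). It was -0.29 with it (53 genes) and -0.21 without it (9 genes) among ribosomal proteins, and -0.24 (25 genes) and -0.06 (6 genes) among the other TOP mRNAs. The start itself is shown for genes described above, from 10 bases before to 15 bases after it (GRCh38.p14), with the pyrimidine run in capitals.
RPL26 (chr17:8383179-8383203, minus strand): gcgtgtagttCTCTTCCCTTTTgcg
RPS27 (chr1:153990752-153990776, plus strand): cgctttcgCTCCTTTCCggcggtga
RPL36A (chrX:101391001-101391025, plus strand): ctcgcggtttCTTTCTTTCCgcgcc
EEF1A1 (chr6:73521018-73521042, minus strand): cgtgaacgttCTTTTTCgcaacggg
EIF4B (chr12:53006446-53006470, plus strand): tcatccgggtCTTTTgcgttctctt

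**Figure D5:**
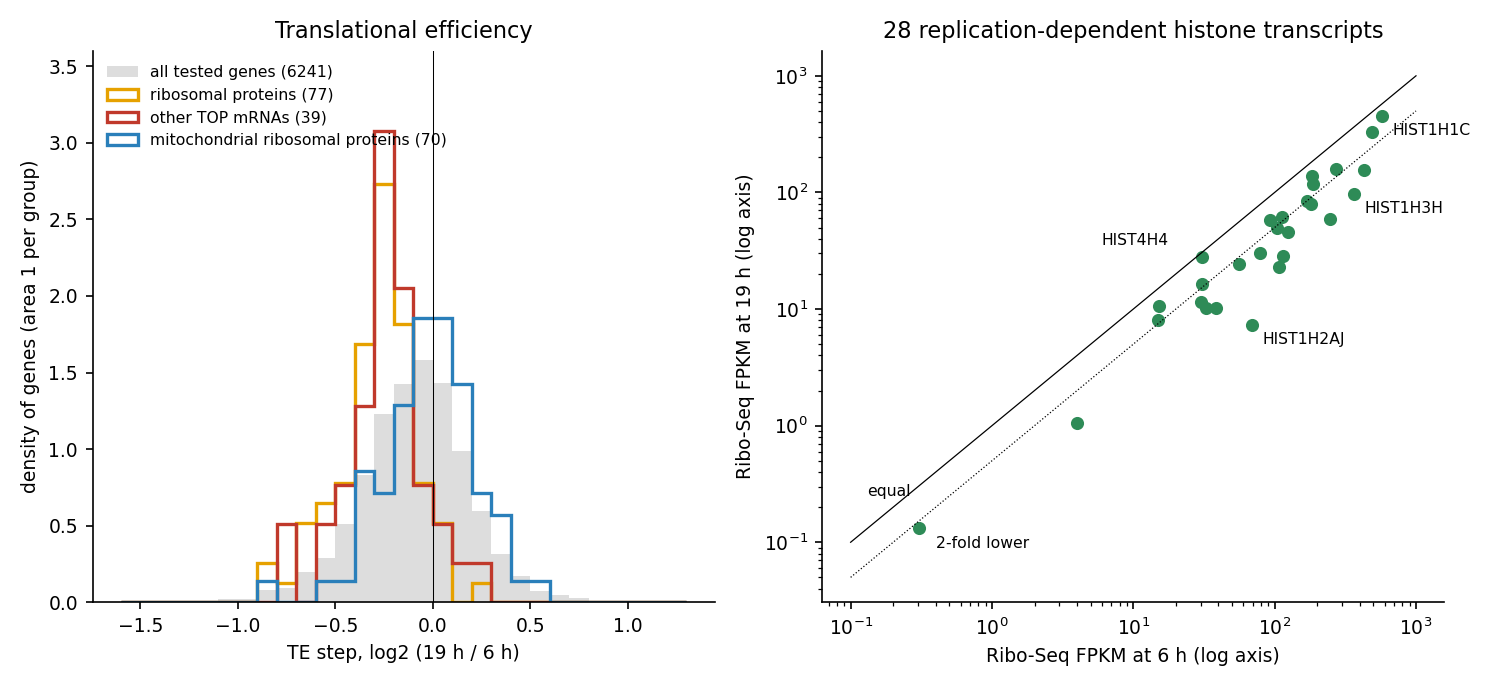
Left, distribution of the TE change from 6 h to 19 h (log2) for all 6241 tested genes (grey), 77 ribosomal proteins, 39 other TOP mRNAs and 70 mitochondrial ribosomal proteins, each scaled to an area of 1. Right, Ribo-Seq FPKM at 19 h against 6 h on log axes for 28 replication-dependent histones, all of which lie below the line of equal levels, and 16 of which were lower by 2-fold or more.

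The 27 TE falls were near the edge of what these depths show. In 19 of them density was lower and RNA was higher at 19 h, 16 had fewer than 100 reads in a Ribo-Seq library, and none exceeded 2-fold by its 95% counting interval. Among genes with at least 20 FPKM in all 4 libraries (2260 genes), the lowest TE changes were those of FXYD5, TAF13, CCNK, BGN, CSNK2B, POLR2A, IFITM2 and S100A10, from -1.08 to -0.90. FXYD5, a regulator of the sodium pump, had RNA of 181, 104 and 194 FPKM at 4, 6 and 19 h and Ribo-Seq levels of 345, 322 and 285 FPKM. CCNK, the cyclin of CDK12, had RNA of 40.1, 29.9 and 44.1 FPKM and Ribo-Seq levels of 36.8, 36.7 and 26.6 FPKM. All 8 had less RNA in the 6 h library than at both 4 h and 19 h, as had 18.2% of all tested genes. Picking genes by a low TE change itself favours less RNA at 6 h than at 19 h. That share is therefore not a like background for the 8. In each of the 8 except TAF13 the change in RNA was larger than that in density. The part of the single 6 h RNA library in these changes was not tested.

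The highest TE changes under the same rule were those of BLOC1S1, MTRNR2L1, PROSC, MRPL16, TWSG1, SDF2L1, SLC2A4RG and GPR176, from 1.04 to 0.54. BLOC1S1, a subunit of a lysosome-related organelle complex, was at 32.2 and 27.0 FPKM in RNA and at 20.2 and 34.6 FPKM in Ribo-Seq, a TE change of 1.04 ± 0.20. SDF2L1, an ER chaperone cofactor, had RNA of 29.3, 51.4 and 29.6 FPKM at 4, 6 and 19 h, and Ribo-Seq levels of 75.9, 124 and 104 FPKM, so its TE gain came with the return of RNA to its 4 h level. TFB1M, a mitochondrial methyltransferase, was the other TE rise, with Ribo-Seq levels of 3.49 and 6.26 FPKM.

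Density falls without a 2-fold RNA fall numbered 34, of which 32 also had a lower RNA. RPL26 and RPL36A were the most abundant of them. HMGB1, a chromatin protein, went from 146 to 88.7 FPKM in RNA and from 89.7 to 43.0 FPKM in Ribo-Seq, and CSE1L, a nuclear export receptor, from 36.6 to 21.4 FPKM and from 17.1 to 8.29 FPKM. GMNN, geminin, an inhibitor of replication licensing, went from 5.00 to 2.68 FPKM in RNA and from 9.99 to 3.99 FPKM in Ribo-Seq. In these 3 genes RNA and density were both lower, and density passed 2-fold while RNA did not.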

How the data were processed

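RNA-Seq and Ribo-Seq libraries of BJ cells on nutlin-3a for 6 h and 19 h were compared, 1 library per group, with groups and times from the labels. For alignment the authors used Bowtie (labels: hg19), counted unique hits, and kept 1 Ensembl release 65 isoform for each gene. The deposited values are FPKM with 3 decimals. The methods take Ribo-Seq levels from the coding sequence while the columns say total, which could not be settled. The study reports Ribo-Seq reads outside the coding sequence too, with a larger share in 3' untranslated regions at 19 h than at 6 h. The effect of this on density and TE was not tested. The RNA-Seq table is named for both assays and was read as RNA-Seq. The labels name no sequencing run, and the study describes run effects.

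Whole reads and totals were recovered from the FPKM steps (length found for 6222 of 6241 tested genes) with Python 3.11.15, numpy 2.4.6 and pandas 2.3.3, and checked on simulated data. They give counting SEs, which cover counting only, and no PCR copies. Log2 ratios used a floor of 1 FPKM and called 2-fold. Named genes were the 12 largest RNA falls and rises among genes past 2-fold in both assays, the 8 largest TE changes either way among genes with 20 FPKM in all 4 libraries, and for each of 30 lists its key members and up to 4 largest changes. The members and lists were chosen with earlier results of these data known. Control columns (2) were set aside. Promoters came from RefSeq, matched through current symbols. Values of some single genes are not reported here.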

Additional observations from a re-analysis of the deposited data

How the results depend on the processing

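No paired analysis was possible because every group holds 1 library. Counts are given as RNA higher and lower, density higher and lower, and TE higher and lower, beside 11 and 50, 4 and 77, and 2 and 27. A floor of 5 FPKM gave 9 and 32, 2 and 40, and 4 and 15. Adding 1 FPKM in place of the floor gave 10 and 42, 1 and 54, and 1 and 10. No filter (11258 genes) gave 24 and 132, 39 and 218, and 60 and 137, and a filter of 20 FPKM (2571 genes) gave 8 and 10, 1 and 10, and 1 and 6. Centring on the median gene gave 16 and 44, 10 and 51, and 7 and 13. Rescaling without the most abundant Ribo-Seq transcripts gave 11 and 50, 9 and 54, and 9 and 11. Removing the length trend gave 7 and 45, 4 and 73, and 1 and 29. A sliding cut-off on local SDs, modelled on the study's, gave 301 and 144, 199 and 242, and 223 and 283, since it follows the local spread of each level. Chosen after the data were seen, 2-fold beyond the 95% counting interval gave 7 and 41, 0 and 35, and 0 and 0, and 2-fold from the 4 h library as well gave 5 and 50, 2 and 71, and 0 and 8, where all RNA falls pass by construction because each was already lower at 6 h than at 4 h. The TE counts therefore rest on the floor, the filter and the scaling. The excess of RNA falls over rises rests on the cut-off, and it was small at the filter of 20 FPKM.

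The RNA median of mitosis genes was -0.95 with a floor of 5 FPKM and -1.24 with a filter of 20 FPKM. That of p53 arrest targets was 0.17 when centred, and that of collagens 0.38 when centred and 0.21 without the length trend. The TE median of ribosomal proteins was -0.21 when centred and -0.18 when rescaled. Among the largest RNA and TE changes named by rule, no gene past 2-fold changed sign in that measure, and other genes were not checked. List medians near 0 did change sign, TE medians above all. The TE median of all genes became 0.03 when rescaled, mitosis TE 0.03 with 1 FPKM added, and arrest-target density -0.01 at the 20 FPKM filter. Ribo-Seq at 19 h is the shallowest library and limits density and TE.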
